A study of Mus musculus with 2 samples.

Results

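T cell receptor variable genes were followed in single cells of the optic nerve of Nf1-OPG mice, a model of the optic pathway glioma of neurofibromatosis type 1. The members were chosen by their symbols, which begin with Trav, Trbv, Trgv or Trdv, and selected on their measured totals, as they held at least 10 unique molecular identifiers (UMIs, 1 per captured RNA molecule) over both count matrices. This rule kept 105 of the 32285 genes in the files, which were 77 of 128 Trav genes, 22 of 35 Trbv genes, 5 of 6 Trdv genes and the 1 gene with a Trgv symbol. The other 65 variable genes held fewer than 10 UMIs and were not described further. Just inside the limit were Trav4d-4 and Trav6d-3 with 10 UMIs each, and just outside it were Trav12n-3 and Trav9n-2 with 8 UMIs each. 6 further gamma variable genes carry Tcrg-V symbols in these files, are not members, and are given only beside the gamma results.

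The 2 libraries, named C-ON and FMC_new, both carry the genotype NF1-OPG in the labels and formed 1 group. Each was a pool of optic nerves from 10 mice aged 12 weeks. Per the methods of the study, the mice carry 1 mutant and 1 floxed Nf1 allele with Cre driven by the GFAP promoter, on a C57BL/6 background. The title of C-ON holds the word control and that of FMC_new the letters FMC. No source used here explains those words, so the libraries were set side by side as 2 pools and not tested as 2 conditions. A separate enrichment of receptor transcripts is mentioned in the labels and was not analysed here, so the values below are variable gene UMIs in the gene expression libraries and not full receptor sequences.

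C-ON held 10845 cell barcodes and 85101211 UMIs, and FMC_new held 21341 barcodes and 129113325 UMIs. A cell was counted as a T cell when Cd3d, Cd3e and Cd3g, the invariant chains that carry the receptor to the surface, summed to at least 2 UMIs, which 1088 of 8832 kept cells of C-ON and 4454 of 16817 kept cells of FMC_new did. Lck, a receptor-proximal kinase not used in the gate, was seen in 73.3% and 70.3% of these cells against 1.33% and 3.88% of cells without a Cd3 UMI. The libraries stood apart in RNA of other cell types seen in T cells. Gh, the pituitary growth hormone gene, was seen in 99.9% of FMC_new T cells but in 0 of 1088 T cells from C-ON, and Jchain, an immunoglobulin joining chain, in 97.5% and 48.3% of the T cells. Trbv UMIs in Cd3-negative cells differed the same way, as they were seen in 0.838% of those of C-ON and in 3.75% of those of FMC_new. Lck in Cd3-negative cells, given above, had the same order. Whether these Trbv UMIs came from free RNA or from T cells whose Cd3 was missed was not tested. 20.3% of the T cells also passed a gate for another cell type, no doublet caller was run, and 296 barcodes occurred in both libraries, of which 6 were T cells in both. Median depth of the T cells was 3727.5 UMIs in C-ON and 3399 in FMC_new.

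A T cell builds its receptor by joining 1 variable gene out of many to a joining segment, with an added diversity segment in beta and delta chains. Alpha and beta chains, from Trav and Trbv genes, form the receptor of most CD8 and CD4 T cells, while gamma and delta chains form that of a smaller lineage. A daughter cell inherits the rearranged genes, so cells of 1 clone share their variable genes, but cells of unrelated clones can share them too. A shared variable gene is therefore not a shared clone. Mouse beta genes lie mostly as single copies on chromosome 6, whereas the alpha genes on chromosome 14 were duplicated in blocks whose copies carry the letters d and n in their names.

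The results below turn on a few of these genes, whose variable exons are shown from GENCODE transcripts on GRCm38, 5′ to 3′ on the plus strand. Trbv16 (chr6:41151933-41152230), Trbv29 (chr6:41271587-41271881) and Trbv13-3 (chr6:41130292-41130585) are shown because CD8 and CD4 cells used them to different extents, and Trav17 (chr14:53806821-53807115) because it was a frequent partner of Trbv16 in FMC_new. Capitals mark the 3′ end of the exon from its last in-frame cysteine codon, where the gene joins the most variable loop of the chain.
Trbv16: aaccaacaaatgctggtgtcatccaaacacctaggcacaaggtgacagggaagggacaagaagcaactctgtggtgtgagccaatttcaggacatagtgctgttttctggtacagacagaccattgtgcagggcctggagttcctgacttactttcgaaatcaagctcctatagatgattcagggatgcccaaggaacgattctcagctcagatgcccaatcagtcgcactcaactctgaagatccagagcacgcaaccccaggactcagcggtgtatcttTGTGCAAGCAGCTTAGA
Trbv29: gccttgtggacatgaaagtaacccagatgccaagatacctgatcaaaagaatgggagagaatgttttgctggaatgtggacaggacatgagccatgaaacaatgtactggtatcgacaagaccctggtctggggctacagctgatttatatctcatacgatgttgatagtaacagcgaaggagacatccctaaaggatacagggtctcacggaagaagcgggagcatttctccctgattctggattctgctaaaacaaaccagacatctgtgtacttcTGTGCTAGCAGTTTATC
Trbv13-3: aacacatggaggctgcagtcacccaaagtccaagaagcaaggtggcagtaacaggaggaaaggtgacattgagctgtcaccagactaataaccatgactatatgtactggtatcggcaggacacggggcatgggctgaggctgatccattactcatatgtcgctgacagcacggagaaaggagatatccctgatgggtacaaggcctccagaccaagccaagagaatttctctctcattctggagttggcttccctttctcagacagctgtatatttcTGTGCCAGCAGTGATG
Trav17: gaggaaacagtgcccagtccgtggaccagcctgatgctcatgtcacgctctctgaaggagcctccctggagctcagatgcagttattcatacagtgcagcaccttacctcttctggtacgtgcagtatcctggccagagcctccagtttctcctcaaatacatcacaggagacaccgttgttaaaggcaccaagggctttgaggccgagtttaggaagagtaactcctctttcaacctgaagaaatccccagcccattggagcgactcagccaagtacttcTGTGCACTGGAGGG
Aligned over these exons, Trbv16 was 53.7% identical to Trbv29 and 55.7% identical to Trbv13-3, so reads of these genes are far apart.

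Copies of the alpha genes are much closer. Trav6-5 (chr14:53491331-53491622) and Trav6d-5 (chr14:52795342-52795633) are shown because both occurred beside Trbv16, and capitals mark the 13 bases at which they differ.
Trav6-5: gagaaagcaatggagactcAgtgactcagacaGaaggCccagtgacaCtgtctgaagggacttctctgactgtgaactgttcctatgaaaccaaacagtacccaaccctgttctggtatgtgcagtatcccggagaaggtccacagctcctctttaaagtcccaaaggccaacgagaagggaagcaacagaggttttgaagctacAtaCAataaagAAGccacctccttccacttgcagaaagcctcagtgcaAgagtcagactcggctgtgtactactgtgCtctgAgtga
Trav6d-5: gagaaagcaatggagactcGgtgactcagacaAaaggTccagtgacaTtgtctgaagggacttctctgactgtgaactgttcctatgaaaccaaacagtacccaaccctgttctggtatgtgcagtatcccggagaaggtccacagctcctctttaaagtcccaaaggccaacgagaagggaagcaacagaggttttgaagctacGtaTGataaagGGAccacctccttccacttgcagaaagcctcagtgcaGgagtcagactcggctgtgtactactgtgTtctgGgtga
The 2 exons were 95.5% identical. Closer copies are common among the alpha genes, as 37 of the 77 Trav members have another Trav gene with an exon at least 98% identical, 8 of them with an exact duplicate, against 0 of the 22 Trbv members. Counts of those 37 are uncertain between copies, so alpha usage is given by subgroup, the number that all copies share, and the values of a single copy named below hold as far as the authors' counting could tell copies apart.

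Variable gene UMIs lay mostly in T cells. The members held 45787 UMIs, of which 87.8% were in T cells, and they made up 0.155% of all T cell UMIs in C-ON and 0.156% in FMC_new. A Trbv UMI was seen in 85.0% of C-ON and 79.3% of FMC_new T cells, a Trav UMI in 73.3% and 69.1%, and a Trdv UMI in 2.67% and 3.10%. Trgv2 alone was seen in 24.9% and 18.4%. Thinned to 1000 UMIs per cell, the Trbv share of all T cells was 52.5% and the Trav share 40.6%, so these shares depend on depth and a cell without a UMI does not lack the chain.

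In each T cell the Trbv gene with the most UMIs was taken as its call, which gave 894 called cells in C-ON and 3344 in FMC_new. All 22 members were used, and the 8 most frequent over both libraries were Trbv19 with 584 cells, Trbv16 with 396, Trbv13-1 with 378, Trbv13-3 with 339, Trbv12-2 with 323, Trbv1 with 248, Trbv5 with 243 and Trbv29 with 242. The order differed between the pools. Trbv16 led in C-ON with 15.4% of calls (95% exact binomial interval 13.1 to 18.0) and held 7.72% in FMC_new, whereas Trbv19 led in FMC_new with 14.9% (13.7 to 16.2) and held 9.51% in C-ON. All binomial intervals in this text cover counting error only, not differences between mice.

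CD8 cells had a Cd8a or Cd8b1 UMI and no Cd4 UMI (556 and 2130 cells), and CD4 cells the reverse (205 and 879 cells). Trbv16 was the beta gene that set them apart most. It was called in 121 of 492 CD8 cells of C-ON (24.6%) and 213 of 1716 of FMC_new (12.4%), against 4 of 173 CD4 cells (2.31%) and 10 of 725 (1.38%). In counts summed per library and subset, Trbv16 stood at 339 CPM (counts scaled to the summed UMIs of that subset) in CD8 and 25.3 in CD4 cells of C-ON, and at 171 and 15.6 in FMC_new. The CD8 level was above the CD4 level in both pools, by a log2 fold change of 3.60 ± 0.14 (SE, n = 2 libraries, edgeR quasi-likelihood test with library as a block, Benjamini-Hochberg adjusted p = 2.49e-06). A summed level cannot separate more cells that use a gene from more RNA per cell, and here the share of cells moved with it.

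**Figure D1:**
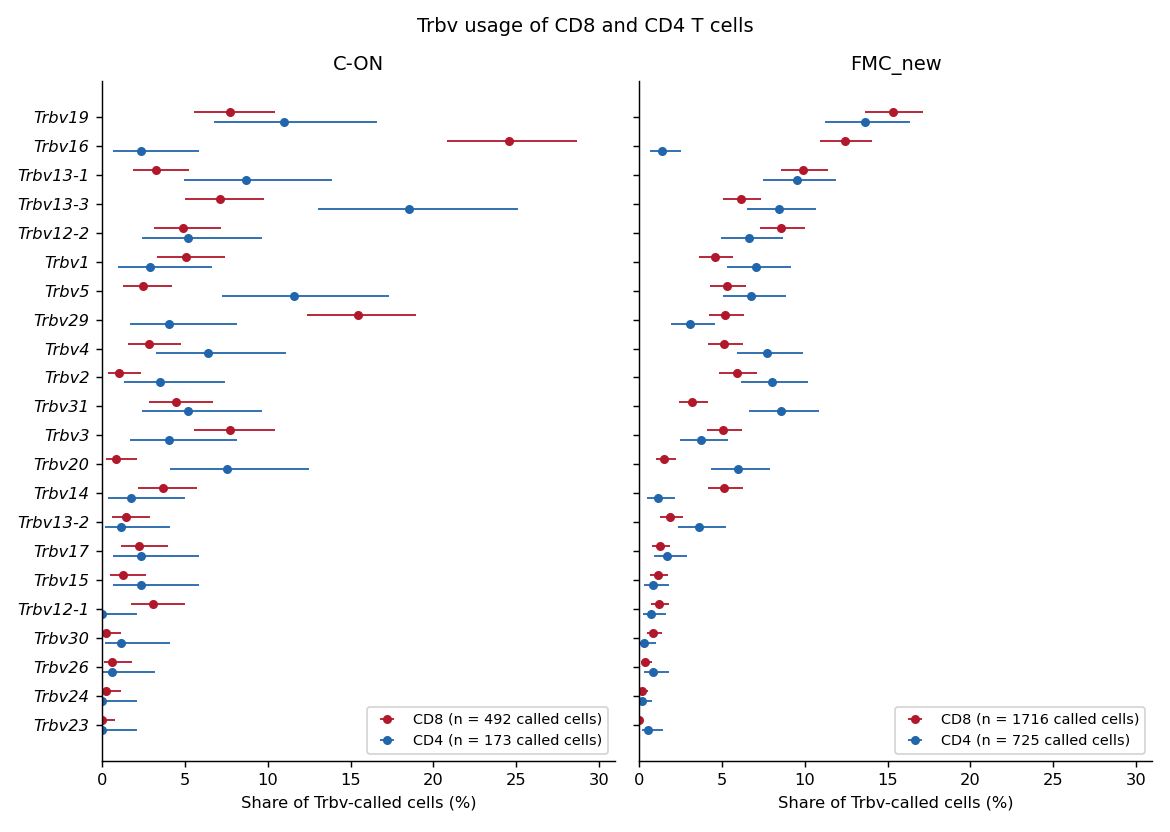
Share of Trbv-called cells (%, x axis) that used each of the 22 Trbv members (y axis, ordered by calls over both libraries) in CD8 cells (red) and CD4 cells (blue) of C-ON and FMC_new, with bars for the 95% exact binomial interval. Trbv16 stands at 24.6% and 12.4% of CD8 cells and at 2.31% and 1.38% of CD4 cells, while Trbv20 lies to the CD4 side in both panels.

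Of the 105 members, 72 had enough counts to be tested between CD8 and CD4 cells, and 18 passed an adjusted p of 0.05, 7 higher and 11 lower in CD8 cells, where 6.21% of all 12544 genes tested passed, 2.70% higher and 3.51% lower. The members' median log2 fold change was -0.33 against 0.01 for all genes. 16 of the 18 pointed the same way in both libraries, and the other 2, both Trav genes, had 0 UMIs in either subset of C-ON. Among beta genes, Trbv29 was also higher in CD8 cells, at 110 against 30.9 CPM in C-ON and 39.1 against 21.8 in FMC_new (log2 fold change 1.27 ± 0.21 SE, edgeR with Benjamini-Hochberg adjusted p = 0.00922). Trbv13-3 and Trbv20 were lower in CD8 cells. Trbv13-3 stood at 67.5 against 170 CPM in C-ON and 54.7 against 96.9 in FMC_new (-1.02 ± 0.14 SE, edgeR with Benjamini-Hochberg adjusted p = 0.00346). Trbv20 stood at 6.23 against 45.9 CPM and 12.0 against 34.6 CPM (-1.91 ± 0.29 SE, edgeR with Benjamini-Hochberg adjusted p = 0.00558). Trbv14, higher in CD8 cells, and Trbv2 and Trbv31, lower, complete the 7 beta calls and were named after their values were seen. Trbv19, the most used beta gene, had a log2 fold change of 0.10 ± 0.15 (SE) and did not pass.

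Among the alpha genes 10 of 50 tested passed, 3 higher and 7 lower in CD8 cells. Trav6d-5 was the alpha gene higher in CD8 cells of both pools, at 27.4 against 9.37 CPM in C-ON and 29.3 against 4.18 in FMC_new (2.40 ± 0.32 SE, edgeR with Benjamini-Hochberg adjusted p = 0.00275). Trav14n-3 was higher in CD8 cells of FMC_new, at 50.8 against 4.65 CPM, and rested on that library alone. Trav14-2, Trav7-4 and Trav4-4-dv10 were lower, with log2 fold changes of -3.13, -2.20 and -1.80. Trav14-2 held only 2 UMIs in CD8 against 9 in CD4 cells of C-ON, and 15 against 55 in FMC_new. It had enough counts to be tested only through CD4 cells, so its lower value was favoured in advance and carries no support. Trav14n-3 and Trav7-4 are among the 37 genes whose counts are uncertain between copies. By subgroup, Trav7 held 8.42% of Trav-called CD8 cells and 16.4% of CD4 cells in C-ON, and 14.2% and 19.4% in FMC_new. Trav14 ran the other way, with 14.8% against 11.6% for C-ON and 16.5% against 7.58% for FMC_new.

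These tests rest on 2 libraries whose subsets share a suspension. Without library as a block edgeR called 0 members in each of the 4 comparisons of this text, with 14, 9, 10 and 3 at an unadjusted p under 0.05. All genes tested gave 0 calls there too, so the loss was not particular to the members. DESeq2 with the block gave an adjusted p to 64, 6, 23 and 4 members and called 7, 0, 4 and 0 of them. Its counts of 0 thus cover only 6 and 4 members.

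Foxp3, the master regulator of regulatory T cells, marked 27 CD4 cells of C-ON and 155 of FMC_new. Against the other CD4 cells, 5 of 36 members tested passed, 2 higher and 3 lower, where 1.94% of all genes passed (0.806% higher and 1.14% lower). Trbv4 was lower, at 17.9 against 40.04 CPM in C-ON and 15.2 against 81.0 in FMC_new (log2 fold change -2.23 ± 0.36 SE, edgeR with Benjamini-Hochberg adjusted p = 0.00733). Its values in Foxp3-positive cells rest on only 3 UMIs in C-ON and 13 in FMC_new. Trbv3 had 0 UMIs in the Foxp3-positive cells of C-ON against 28 in the other CD4 cells, and stood at 10.5 against 63.0 CPM in FMC_new. It had enough counts to be tested only through the CD4 cells without Foxp3, so a lower value was favoured in advance and carries no support. Trbv13-1 was lower by -1.20 ± 0.23 (SE). Trbv16 was higher, at 83.3 against 14.5 CPM and 38.5 against 9.87 CPM, but only 1 and 5 Foxp3-positive cells were called Trbv16. Trav7-3 was higher in both pools, at 59.5 against 27.8 CPM and 103 against 27.6 CPM, and is uncertain against its copy Trav7d-3. In C-ON 10 of the 22 called Foxp3-positive cells used Trbv13-3 (45.5%, 24.4 to 67.8), against 14.6% of the other CD4 cells. In FMC_new the same shares were 12.6% and 7.59%, and Trbv13-3 did not pass (edgeR with Benjamini-Hochberg adjusted p = 0.674).

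Pdcd1 encodes PD-1, an inhibitory receptor carried by T cells under sustained receptor stimulation. A Pdcd1 UMI was seen in 298 of 556 CD8 cells of C-ON and 1215 of 2130 of FMC_new. These cells were deeper, with median UMIs of 4464.5 against 3487 in C-ON and 3910 against 3463 in FMC_new, and the part of depth in the shares below was not tested except where thinned values are given. Trbv16 was called in 109 of 278 Pdcd1-positive CD8 cells of C-ON (39.2%, 33.4 to 45.2) and 168 of 1026 of FMC_new (16.4%, 14.2 to 18.8). Among Pdcd1-negative CD8 cells it held 5.61% and 6.52%. Read the other way, 90.1% of the Trbv16 CD8 cells of C-ON and 78.9% of those of FMC_new had a Pdcd1 UMI. The intervals of the Pdcd1-positive and Pdcd1-negative shares did not overlap in either library. They treat each cell as an independent draw, which cells of the same clone or mouse are not. The gap between them is therefore descriptive and not a test.

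**Figure D2:**
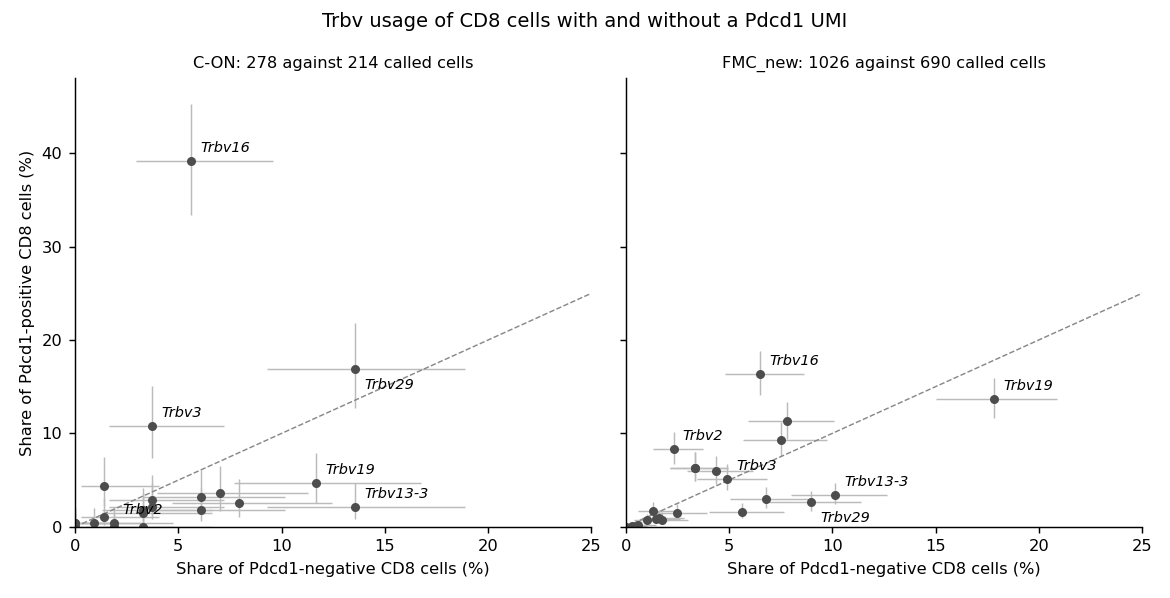
Share of Trbv calls held by each Trbv member among Pdcd1-negative CD8 cells (%, x axis) and Pdcd1-positive CD8 cells (%, y axis), in C-ON and FMC_new, with 95% exact binomial intervals as grey lines and a dashed line of equal shares. Trbv16 lies above the line in both panels at 39.2% and 16.4%, Trbv13-3 lies below it in both, and Trbv29 changes sides.

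In summed counts 15 of 60 members tested differed between Pdcd1-positive and Pdcd1-negative CD8 cells, 7 higher and 8 lower, where 5.15% of all genes passed (2.94% higher and 2.21% lower). 12 of the 15 pointed the same way in both libraries. The exceptions were Trav14n-3, with 0 UMIs in C-ON, and Trav7-5 and Trav14d-3-dv8, which were lower in Pdcd1-positive cells of C-ON. Trbv16 stood at 543 against 51.6 CPM in C-ON and 237 against 66.6 in FMC_new (log2 fold change 2.43 ± 0.30 SE, edgeR with Benjamini-Hochberg adjusted p = 0.00098). It was the 1 beta gene called higher. Trbv13-3 was lower, at 42.7 against 102 CPM and 37.3 against 82.5 CPM (-1.28 ± 0.13 SE, edgeR with Benjamini-Hochberg adjusted p = 0.00037). Trbv17 and Trbv31 were lower by -1.32 ± 0.20 and -1.08 ± 0.21 (SE), and Trbv1, named for its frequency, by -0.81 ± 0.19. Trav6d-5 was higher, at 43.9 against 4.16 CPM and 43.8 against 6.24 CPM (2.85 ± 0.25 SE, edgeR with Benjamini-Hochberg adjusted p = 0.000158). Trav3-1 and Trav4-3 were lower by -2.93 ± 0.55 and -2.88 ± 0.52 (SE). Trav3-1 held 1 against 31 UMIs in C-ON and 13 against 33 in FMC_new, and Trav4-3 held 1 against 12 and 7 against 24. Both had enough counts to be tested only through Pdcd1-negative cells, so a lower value was favoured in advance and carries no support. With cells left out that also passed another cell type's gate, 27 of 56 members tested passed, and with no quality limits 31 of 60. Calls among all genes rose as well. They were 518 higher and 478 lower of 10604 genes without those cells, and 681 higher and 561 lower of 12312 with no quality limits.

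Trbv29 separated the pools. It was called in 15.4% of CD8 cells of C-ON and 5.19% of FMC_new, and its level in Pdcd1-positive against Pdcd1-negative CD8 cells was 141 against 68.2 CPM in C-ON but 22.6 against 65.5 in FMC_new. The fit over both libraries gave -0.42 ± 0.43 (SE) and did not pass. Trbv2 was seen mostly in FMC_new, where 85 of its 101 CD8 cells had a Pdcd1 UMI (84.2%), while C-ON held 5 Trbv2 CD8 cells. Across all beta genes, the summed absolute difference in usage between the libraries, divided by 2, was 49.6% in Pdcd1-positive CD8 cells, 15.6% in Pdcd1-negative CD8 cells and 22.4% in CD4 cells, values that also grow as fewer cells are called.

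Among CD4 cells without Foxp3, 1 of 42 members tested passed between Pdcd1-positive and Pdcd1-negative cells (2.38%). That is near the 2.03% of all genes that passed (0.691% higher and 1.34% lower), so the count does not set the members apart. Trbv4 was higher, at 73.4 against 22.2 CPM in C-ON and 121 against 45.9 in FMC_new (log2 fold change 1.43 ± 0.23 SE, edgeR with Benjamini-Hochberg adjusted p = 0.00102). In calls the direction was clear in 1 pool, with 13.5% against 5.42% in FMC_new and 6.90% against 6.45% in C-ON. With no quality limits 0 members passed, with 6 at an unadjusted p under 0.05, where 20 of all 10140 genes were higher and 28 lower. Without cells of another gate 4 members passed, where 65 of all 8169 genes were higher and 87 lower.

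The chance that 2 cells of the same library and subset carry the same Trbv call summarises how uneven usage is. Among Pdcd1-positive CD8 cells it was 20.1% in C-ON and 9.08% in FMC_new, against 7.64% and 8.15% among Pdcd1-negative CD8 cells. The contrast was wider for cells that shared both a Trav subgroup and a Trbv gene. That chance was 11.7% and 3.24% among Pdcd1-positive CD8 cells, 0.894% and 1.06% among Pdcd1-negative ones, and 1.08% and 0.963% among CD4 cells. For a Pdcd1-positive CD8 cell of C-ON and one of FMC_new it was 2.14%, below both values within a library. For the Trbv call alone the value between libraries was 9.30%, below that within C-ON but slightly above the 9.08% within FMC_new. With 2 libraries these chances carry no test.

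**Figure D3:**
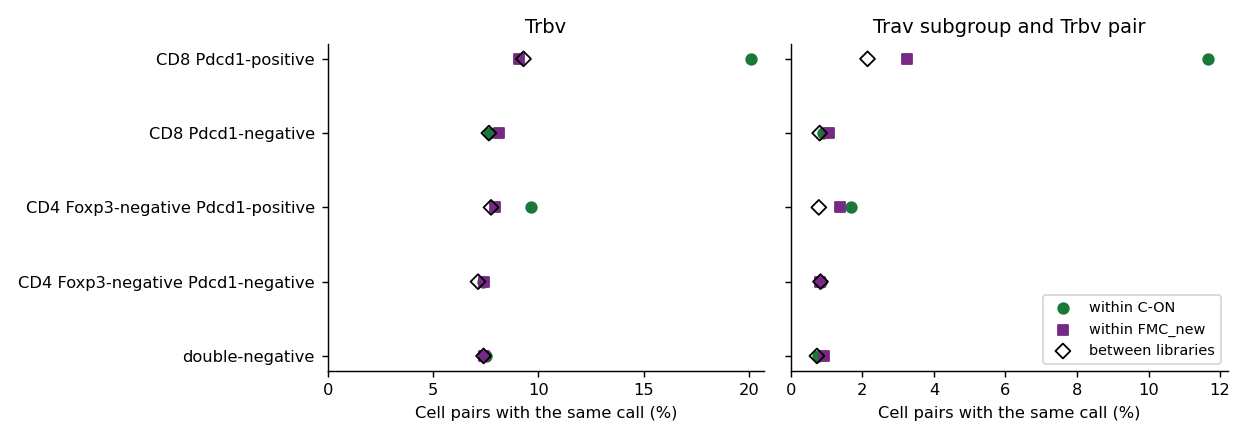
Percent of cell pairs (x axis) with the same Trbv call (left) or the same Trav subgroup and Trbv call (right) in 5 T cell subsets (y axis), for pairs within C-ON (green circles), within FMC_new (purple squares) and between the libraries (open diamonds). The Pdcd1-positive CD8 row stands at 11.7% and 3.24% in the right panel, and the CD8 Pdcd1-negative and double-negative rows lie near 1%.

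A few alpha and beta pairs were far more frequent than the rest. In C-ON the most frequent was Trav6 with Trbv16, in 62 T cells, of which 58 were Pdcd1-positive CD8 cells and 0 were CD4 cells. It made up 27.5% of the 211 paired Pdcd1-positive CD8 cells and 1.39% of the 144 Pdcd1-negative ones. In FMC_new the same pair was found in 63 T cells, 52 of them Pdcd1-positive CD8 cells. Of the 5 leading pairs of each library, only this one and Trav7 with Trbv19 led in both. Trav10 with Trbv29 (33 cells) and Trav14 with Trbv3 (33 cells) followed in C-ON and were found in 5 and 6 cells of FMC_new. In FMC_new the leading pairs were Trav14 with Trbv19 (95 cells), Trav14 with Trbv2 (70 cells) and, in the fifth place, Trav17 with Trbv16 (55 cells), which C-ON held in 4, 0 and 1 cells. In all of these most cells were Pdcd1-positive CD8 cells. The fifth pair of C-ON, Trav9 with Trbv29, was split, as its 13 cells were 7 Pdcd1-positive and 6 Pdcd1-negative CD8 cells. It made up 3.32% of the paired Pdcd1-positive and 4.17% of the paired Pdcd1-negative CD8 cells. Trav7 with Trbv19 was found in 16 and 56 cells, but only 5 and 6 of those were Pdcd1-positive CD8 cells, and in FMC_new 15 were CD4 cells.

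**Figure D4:**
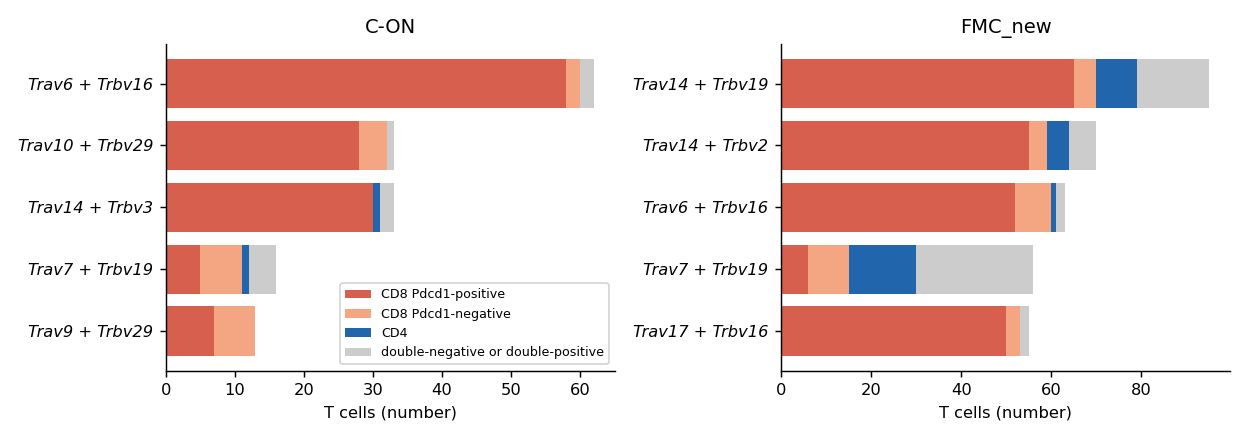
Number of T cells (x axis) with each of the 5 most frequent Trav subgroup and Trbv pairs of C-ON and FMC_new (y axis), split by subset in colour. Pdcd1-positive CD8 cells fill most of each bar, with 58 of 62 for Trav6 with Trbv16 in C-ON, except for Trav7 with Trbv19. Trav9 with Trbv29 in C-ON is split, with 7 of its 13 cells Pdcd1-positive and 6 Pdcd1-negative CD8 cells.

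The copies printed above were counted apart in the Trbv16 cells. Of the 109 Trbv16-called Pdcd1-positive CD8 cells of C-ON, 39 held Trav6-5 UMIs and 32 held Trav6d-5 UMIs, and 0 held both. Of the 168 in FMC_new, 102 held Trav6d-5 and 5 held Trav6-5, all 5 of them together with Trav6d-5. Trav17 was seen in 62 of the FMC_new cells and 0 of the C-ON cells. With the Trbv16 cells called Trav6 or Trav17 left out, Trbv16 held 23.2% of Pdcd1-positive against 4.72% of Pdcd1-negative CD8 cells in C-ON. In FMC_new it then held 7.14% against 5.01% (5.57 to 8.998 and 3.49 to 6.93). These subgroups were chosen from the same data as frequent partners of Trbv16 in Pdcd1-positive cells. Leaving them out had to lower that share, so the values only describe the remainder and test nothing.

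T cells often rearrange both alpha alleles, so that 1 cell can hold transcripts of 2 alpha genes. Of 78 FMC_new T cells with Trav14n-3 and Trbv2, 57 also held Trav3-3 (73.1%), which was seen in 14 of the 122 Trbv2 cells without Trav14n-3 (11.5%). Of 84 with Trav14d-3-dv8 and Trbv19, 26 also held Trav7-3 (30.95%), against 6.27% of the other Trbv19 cells. In C-ON 14 of 37 cells with Trav10d and Trbv29 held Trav14d-1 (37.8%), against 2 of the other 59 Trbv29 cells (3.39%). The Trbv16 cells of FMC_new were less uneven, as Trav6d-5 was seen in 37 of 70 with Trav17 (52.9%) and 82 of 188 without it (43.6%). In the C-ON cells with Trav6-5 and Trbv16 the most frequent other alpha gene was seen in 2 of 43. These pairs and companions were named after their values were seen, and Trav14n-3, Trav3-3, Trav7-3, Trav10d, Trav14d-1 and Trav6-5 have near-identical copies.

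Over all T cells a second Trav subgroup with at least 2 UMIs was seen in 446 of 2650 cells (16.8%) and a second Trbv gene in 383 of 3397 (11.3%). At 1 UMI a second Trbv gene was seen in 29.2%, and the following values also count single UMIs. Another Trbv gene was present in 79.0% of C-ON and 72.6% of FMC_new cells with a Trbv12-2 UMI, and 237 cells held Trbv12-2 together with Trbv13-2, its neighbour on chromosome 6. Next came Trbv12-2 with Trbv16, in 90 cells. Both chains of a pair may stem from 1 cell or from 2 cells in 1 droplet, and this was not tested.

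Trgv2, a gamma chain gene, was seen mostly in cells that also held beta chain transcripts. It was found in 38.3% of CD8 cells of C-ON (34.2 to 42.5) and 32.1% of FMC_new (30.1 to 34.1), against 7.80% and 1.71% of CD4 cells and 0.0336% and 0.376% of oligodendrocyte cells. A Trbv UMI was present in 252 of the 271 Trgv2 T cells of C-ON and 717 of the 818 of FMC_new. Most Trgv2 T cells thus held transcripts of both chains. Trgv2 stood at 226 against 38.4 CPM in CD8 and CD4 cells of C-ON and 186 against 6.04 in FMC_new (log2 fold change 3.77 ± 0.42 SE, edgeR with Benjamini-Hochberg adjusted p = 0.000951).

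Within CD8 cells Trgv2 moved with Pdcd1. It was seen in 54.7% of Pdcd1-positive against 19.4% of Pdcd1-negative CD8 cells in C-ON and in 45.8% against 13.9% in FMC_new. At 1000 UMIs per cell the shares were 25.6% against 9.47% and 22.9% against 6.54%, so the order held at equal depth. Its levels were 314 against 102 CPM and 261 against 67.6 CPM (1.72 ± 0.13 SE, edgeR with Benjamini-Hochberg adjusted p = 6.26e-05). The share of CD8 cells with Trgv2 varied by beta gene. Among CD8 cells called Trbv16 it was seen in 60.3% and 59.6%, among those called Trbv29 in 55.3% and 24.7%, and among those called Trbv13-3 in 28.6% and 8.57%. For Trbv3 the values were 60.5% and 40.2%. The Trgv2 share was lower for some rarer genes, with 0 of 15 cells called Trbv12-1 in C-ON and 1 of 19 called Trbv15 in FMC_new. Pdcd1 varied by beta gene too, and was seen in 90.1% and 78.9% of Trbv16 CD8 cells. It was seen in 61.8% and 30.3% of Trbv29 cells and 17.1% and 33.3% of Trbv13-3 cells. Whether Trgv2 differs by beta gene at equal Pdcd1 status was not tested.

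**Figure D5:**
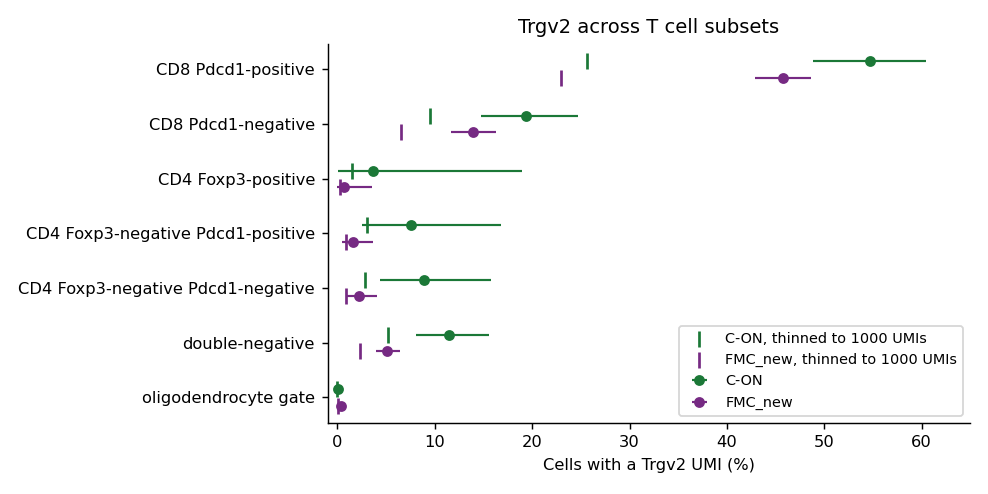
Share of cells with a Trgv2 UMI (%, x axis) in T cell subsets and in the Cd3-negative oligodendrocyte gate (y axis) of C-ON (green) and FMC_new (purple). Circles give all cells with 95% exact binomial intervals and vertical ticks the share expected at 1000 UMIs per cell, and Pdcd1-positive CD8 cells lie above the other subsets shown in both libraries, at 54.7% and 45.8%.

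Of the gamma constant genes, Tcrg-C2 and Tcrg-C4 were higher in CD8 than in CD4 cells, with log2 fold changes of 4.004 ± 0.35 and 3.39 ± 0.31 (SE), and higher in Pdcd1-positive than in Pdcd1-negative CD8 cells, with 1.67 ± 0.17 and 1.90 ± 0.24. Tcrg-C1 did not pass in either comparison, with 1.15 ± 0.51 and 0.00 ± 0.40 (SE). In the 839 T cells whose 1 gamma variable gene was Trgv2, Tcrg-C2 held 457 UMIs, Tcrg-C4 195 and Tcrg-C1 18. Tcrg-V6 differed, as the 28 cells with it alone held 15 Tcrg-C1 UMIs and 0 Tcrg-C2 UMIs. Trgv2 has its closest relative in Tcrg-V1, at 95.4% identity, and 141 of the 211 T cells with a Tcrg-V1 UMI also held Trgv2, so their counts are uncertain between the 2.

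Of the wider receptor machinery, 29 listed constant and proximal signalling genes outside the Cd3 gate were in the files. Between CD8 and CD4 cells 24 were tested, where 2.70% of all genes passed as higher and 3.51% as lower. 2 were higher in CD8 cells, Tcrg-C2 and Tcrg-C4, and 7 were lower, among them Cd247, the zeta signalling chain, by -1.30 ± 0.11, and Cd5, a brake on receptor signalling, by -1.62 ± 0.11. Between Pdcd1-positive and Pdcd1-negative CD8 cells 4 of 24 were higher and 1 lower, where 2.94% of all genes were higher and 2.21% lower. Trac, the alpha constant gene, was higher by 0.49 ± 0.11, Zap70, a kinase recruited to the engaged receptor, by 0.64 ± 0.12, and Lat, an adaptor, was lower by -0.65 ± 0.15. In the Foxp3 comparison 0 of 21 passed by edgeR, where 1.94% of all genes did. In that of Pdcd1 within CD4 cells 1 of 21 did, where 2.03% of all genes did. This was Cd247, higher by 0.69 ± 0.16.

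The delta genes were rare and did not behave as 1 set. Trdv4 was seen in 13 T cells of C-ON and 34 of FMC_new, of which 11 and 30 were double-negative, without Cd4 or Cd8 UMIs, and of which 1 and 8 held a Trbv UMI. Over both libraries Cd163l1, a scavenger receptor of interleukin-17 producing gamma-delta T cells, was seen in 63.8% of Trdv4 T cells against 0.146% of other T cells, and Tcrg-V6 in 61.7% against 0.364%. Il23r (38.3% against 0.619%), Blk (40.4% against 0.983%) and Il17a (17.02% against 0.182%) went the same way. Trdc was seen in 46.8% and Trac in 14.9% of Trdv4 T cells, where 45.3% of other T cells held Trac. Trdv4 was thus accompanied by gamma-delta genes in these cells.

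Among T cells, Trdv1, Trdv2-1 and Trdv2-2 were found mostly in cells with a Trbv UMI. Trdv1 was seen in 8 and 51 T cells, of which 7 and 43 held a Trbv UMI. Trdv2-2 was seen in 8 and 32 T cells (8 and 27 with Trbv), Trdv2-1 in 1 and 19 (1 and 15) and Trdv5 in 2 and 9 (1 and 7). Of the 59 Trdv1 T cells over both libraries 3 held Trdc (5.08%) and 0 held Cd163l1 (at most 5.08% by the limit that a count of 0 allows). Trdv1 had 0 UMIs in Pdcd1-positive and 7 in Pdcd1-negative CD8 cells of C-ON, and 14 and 43 in FMC_new (edgeR with Benjamini-Hochberg adjusted p = 0.0157). It had enough counts to be tested only through Pdcd1-negative cells, so this direction was favoured in advance and carries no support.

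Trav11, used by invariant natural killer T cells, had 1 UMI in all and its near-identical copy Trav11d had 0, so both fell under the member limit. Trav1, used by mucosal-associated invariant T cells, was seen in 12 and 53 T cells. Zbtb16, the transcription factor of innate-like T cells, was found in 4 of 65 Trav1 T cells (6.15%) against 8.80% of the others. Trav15-1-dv6-1, an alpha gene that can also join the delta chain, was seen in 20 and 46 T cells, of which 18 and 38 held a Trbv UMI, and Trdc was found in 12.1% of them against 0.895% of other T cells.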

How the data were processed

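Optic nerves of 10 Nf1-OPG mice were pooled per library and sequenced with 10x 5′ chemistry. The authors deposited raw UMI counts per gene and barcode, made with Cell Ranger 7.2.0 on mm10 per the file headers. The submitters' processing notes also name Seurat 5.2.1. Matrices were read as counts, with 500 to 5000 genes, 500 to 20000 UMIs and under 5% mitochondrial UMIs per kept cell. T cells held at least 2 Cd3 UMIs. No doublet caller was run. Counts were summed per library and subset and tested with edgeR 4.0.16 (quasi-likelihood, TMM, filterByExpr, library as a block, Benjamini-Hochberg over all genes tested), checked on simulated data. The simulated counts had the same spread for all genes and no difference between libraries. The check therefore does not cover genes whose usage differs between the pools. The block stands because both subsets of a library come from the same suspension. It left 1 residual degree of freedom per fit, so p-values lean on the spread shared across genes. DESeq2 1.42.0, other scaling, no count filter, no block, other gates and each library alone were alternatives. Shares carry exact Clopper-Pearson intervals at 95%, and a count of 0 allows 3 counts. Depth was 85101211 UMIs in C-ON and 129113325 UMIs in FMC_new. Thinning gave the expected share at 1000 UMIs per cell. Sequence identity was computed between variable exons of GENCODE transcripts on GRCm38.

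The members and gene lists were chosen with earlier results of these data known. Named were the 8 most called Trbv genes and Trav subgroups, all Trgv and Trdv members, up to 10 members per comparison by smallest p, listed semi-invariant genes with companion markers (1 of them is not reported here), and the 5 most frequent pairs per library. The residual spread and the p-values measure only these 2 pools. Receptor sequencing data were not analysed here.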

Additional observations from a re-analysis of the deposited data

Results flagged for a closer look

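Trdv4 UMIs appeared in cells outside the T cell gate. Among cells without a Cd3 UMI that held at least 2 UMIs of Ncr1 and Klrb1c, genes of natural killer cells, Trdv4 was seen in 18 of 68 cells of C-ON (26.5%, 16.5 to 38.6) and 26 of 214 of FMC_new (12.1%, 8.09 to 17.3). In the oligodendrocyte gate it was seen in 0.0336% and 0.103% of cells. Trdv2-2 was seen in 10.3% and 14.0% of the same natural killer cells, whereas Trdv1, Trdv2-1 and Trdv5 were at 0, which allows up to 4.41% and 1.40%. Ncr1 was present in 97.1% and 95.3% of these cells, a share largely set by the gate, which uses Ncr1. Among genes outside the gate, Trdc was seen in 5.88% and 7.94%, Trac in 2.94% and 4.21% and Trbc2 in 30.9% and 35.5%. What gave these UMIs was not tested.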

How the results depend on the processing

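No called member took the opposite sign in an alternative fit over both libraries. In C-ON by itself Trav7-5 and Trav14d-3-dv8 ran against their calls for Pdcd1 in CD8 cells. The members' median log2 fold change for Pdcd1 in CD8 cells, -0.07, was 0.02 without cells of another gate. Detection depends on the gate and on depth. With at least 1 Cd3 UMI the Trbv, Trav and joint Trgv or Trdv shares of T cells were 65.1%, 56.9% and 17.5%, with at least 3 the Trbv and Trav shares were 84.6% and 73.9%, and at 1000 UMIs per cell the 3 shares were 52.5%, 40.6% and 10.7%, against 80.4%, 69.9% and 21.8%. Each library alone gave 79.3% to 85.0%, 69.1% to 73.3% and 20.7% to 26.7%. A second Trbv gene was seen in 29.2% of cells at 1 UMI and 5.45% at 3, and a second Trav subgroup in 40.1% and 7.02%, with 9.34% to 11.8% and 14.8% to 17.3% in single libraries. Trbv sharing among Pdcd1-positive CD8 cells was 9.08% to 20.1% in single libraries, and 75 to 101 genes reached the member limit in 1 library alone.

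The replicate block decided the calls, of members and of all other genes alike. The library pairs the subsets. Without the block the members called fell from 18, 5, 15 and 1 to 0 in each of the CD8 against CD4, Foxp3, Pdcd1 in CD8 and Pdcd1 in CD4 comparisons by edgeR, with 14, 9, 10 and 3 at an unadjusted p under 0.05. Among all 12544, 9057, 11763 and 9699 genes tested, 0 passed without the block too. DESeq2 gave an adjusted p to 64, 6, 23 and 4 members and called 7, 0, 4 and 0, with 16, 2, 6 and 0 at an unadjusted p under 0.05. Among all genes it called 88 higher and 131 lower of 11571, 29 and 26 of 3789, 110 and 45 of 6974, and 2 and 10 of 2554. It gave no adjusted p to Trbv3, Trbv4 and Trbv16 for Foxp3, nor to Trbv4 for Pdcd1 in CD4 cells. With no filter on low counts edgeR called 41, 10, 28 and 5 of 105, 103, 105 and 101 members. All genes then gave 633 higher and 688 lower of 21711, and 128 and 243 of 19304 in the first 2 comparisons. In the Pdcd1 comparisons they gave 572 and 515 of 20946 in CD8 cells, and 111 and 238 of 18875 in CD4 cells. In the Foxp3 comparison at least 3 Cd3 UMIs gave 8 members, where 96 of all 8750 genes were higher and 134 lower. No quality limits gave 2 there, where 50 of all 9560 genes were higher and 77 lower. In the Pdcd1 comparisons no quality limits gave 31 members in CD8 and 0 in CD4 cells, where all genes gave 681 higher and 561 lower of 12312, and 20 and 28 of 10140. Leaving out cells of another gate gave 27 and 4 members, where all genes gave 518 higher and 478 lower of 10604, and 65 and 87 of 8169. The cause was not tested. Trbv16, Trgv2, Trav6d-5 and Trbv13-3 passed in 6 of 7 alternatives of the CD8 against CD4 and Pdcd1 in CD8 comparisons, all but the fit without the block. No count exists for 1 library alone, since a fit with 1 sample per subset has no residual degrees of freedom.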
